A study of Mus musculus with 6 samples.

Results

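The Tnfaip3 locus was defined as all CTBP2 sites of the deposited table whose centre lies in a window of 450 kb around the gene Tnfaip3 on mouse chromosome 10. The window held 45 of the 62236 sites in the table, and they were picked by position alone. CTBP2 binding was measured by chromatin immunoprecipitation and sequencing (ChIP-seq) in bone marrow-derived macrophages, a primary cell model in which marrow precursors mature into macrophages in culture. The tested cells had received lipopolysaccharide (LPS), a component of the bacterial outer membrane, at 100 ng/ml for 3 h (3 libraries), and the comparison cells had received the vehicle, PBS (3 libraries). All 6 libraries came from wild-type male C57BL6/N mice aged 6 to 12 weeks, whose marrow was differentiated over 6 days in medium conditioned by L929 cells. Cells were cross-linked with DSG and then formaldehyde, chromatin was sheared to 500 to 1000 bp, and 1 CTBP2 antibody was used throughout. The labels give replicate numbers and do not say whether separate animals or dishes stood behind them, so p-values reflect the spread of the libraries at hand, and that spread could be purely technical. No input library and no transcript was analysed here, so the macrophage label could not be checked against marker transcripts.

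Tnfaip3 encodes A20, a ubiquitin-editing enzyme that restrains signalling to NF-kB, the transcription factor family activated when LPS engages the receptor TLR4. The gene is itself induced by NF-kB, which makes A20 a classical negative feedback regulator in macrophages, and its loss causes inflammation in mice. CTBP2 is a co-repressor that does not read DNA sequence itself but is recruited by DNA-bound factors, and its activity depends on NAD(H). Its ChIP-seq signal at a site reports where the protein can be cross-linked, directly or through partners, and not whether the gene nearby is repressed.

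The gene lies on the minus strand, so sites at higher coordinates are upstream of it. Site coordinates are given as in the table and read as GRCm39. The gene positions used here are on an older build, and they were placed by an offset of 124.45 kb measured in the table itself. It was chosen as the shift at which the most other gene starts within 2 Mb had a site within 500 bp. By that choice 18 of 36 had one, against 2 without a shift. The placed Tnfaip3 start fell 251 bp from the centre of the site chr10:18890711-18891711, called the start site below, and all distances are counted from it. Of the other sites, 28 lay upstream and 16 downstream. The nearest downstream site was 27.5 kb away, more than the gene's RefSeq length of 14501 bp, so no other site in that direction lay in the gene body. The protein-coding neighbours are Perp on the downstream side and Olig3 on the upstream side, and the long noncoding RNA genes Gm51814, 1700124M09Rik, Gm20139 and Gm40607 lie between Tnfaip3 and Olig3.

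The bases just before the Tnfaip3 start are shown because the most heavily occupied site of the locus lies there. They are the 250 bases upstream of the start in the RefSeq promoter entry (GRCm38.p6, chr10:19015411-19015660, minus strand), read 5′ to 3′, with matches to the NF-kB and AP-1 motifs in capitals.
Tnfaip3 promoter: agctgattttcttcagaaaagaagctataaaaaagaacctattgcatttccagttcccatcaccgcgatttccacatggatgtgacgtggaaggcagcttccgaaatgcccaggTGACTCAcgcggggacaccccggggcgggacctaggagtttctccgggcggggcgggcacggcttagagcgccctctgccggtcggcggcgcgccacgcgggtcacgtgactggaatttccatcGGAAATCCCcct
The GC content of this stretch is 58.8%. Motifs were searched on both strands of the whole entry of 300 bases, which runs to 50 bases after the start. The NF-kB motif GGGNNTTCC matched once, on the minus strand of the entry, 12 to 4 bases before the start, and 5.82% of 32851 mouse promoter entries hold it. The AP-1 motif TGANTCA matched 136 to 130 bases before the start and is held by 7.81% of entries. The E-box CAGGTG, a motif of ZEB-type factors that recruit CTBP proteins, matched 140 to 135 bases before the start and overlaps the AP-1 match, and 20.2% of entries hold it. The KLF motif CCNCNCCC matched 91 to 84 bases before the start, as in 49.5% of entries. The NF-kB motif GGGANNTTC, the PU.1 motif GAGGAAGT, the C/EBP motif TTGCNNAA, the interferon response motif GAAANNGAA and the E-box CAGGTA had no match in this window, and they are held by 3.94%, 3.202%, 10.8%, 8.56% and 12.0% of entries in that order. These are matches of letters and not measured binding sites. Only the patterns given here were searched, so NF-kB sequences that depart from them, such as those without GGG, are neither counted nor marked. Sequences of the more distant sites were not used here, because no genome of their build was at hand.

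Across the series, the deposited values of each library behaved as reads multiplied by 1 factor. On that reading the libraries held 3243258 to 4553179 reads in sites, with a median of 39 to 55 per site. The deposited medians were uneven, from 37.1 to 61.0 in LPS and from 35.5 to 73.0 in vehicle, and each library was therefore divided by its median and brought to a common median of 46.9 (scaled signal). After scaling, limma called 10034 sites higher in LPS (16.1% of sites) and 8409 lower (13.5%) at a Benjamini-Hochberg adjusted p under 0.05, so 54.4% of calls were higher. Without the scaling, limma called 1178 higher and 30 lower, of which 97.5% were higher. The median log2 fold over all sites was -0.02. Folds are of log2(scaled signal + 1), LPS over vehicle, which understates changes at low sites.

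CTBP2 signal over the locus as a whole was higher in LPS. The 45 sites summed to 3295, 3342 and 3620 scaled signal in LPS replicates 1, 2 and 3, against 1870, 1816 and 1760 in vehicle replicates 1, 2 and 3. The groups did not overlap, and the means were 3419 ± 175 in LPS and 1816 ± 55.03 in vehicle (SD, n = 3 each), a ratio of 1.88. As a share of all reads in sites, which needs no scaling by the median, the locus took 0.0826%, 0.0860% and 0.0939% in LPS and 0.0491%, 0.0478% and 0.0451% in vehicle. The reads behind these sums were 3019, 3917 and 4011 in LPS and 1634, 2129 and 1463 in vehicle.

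**Figure D1:**
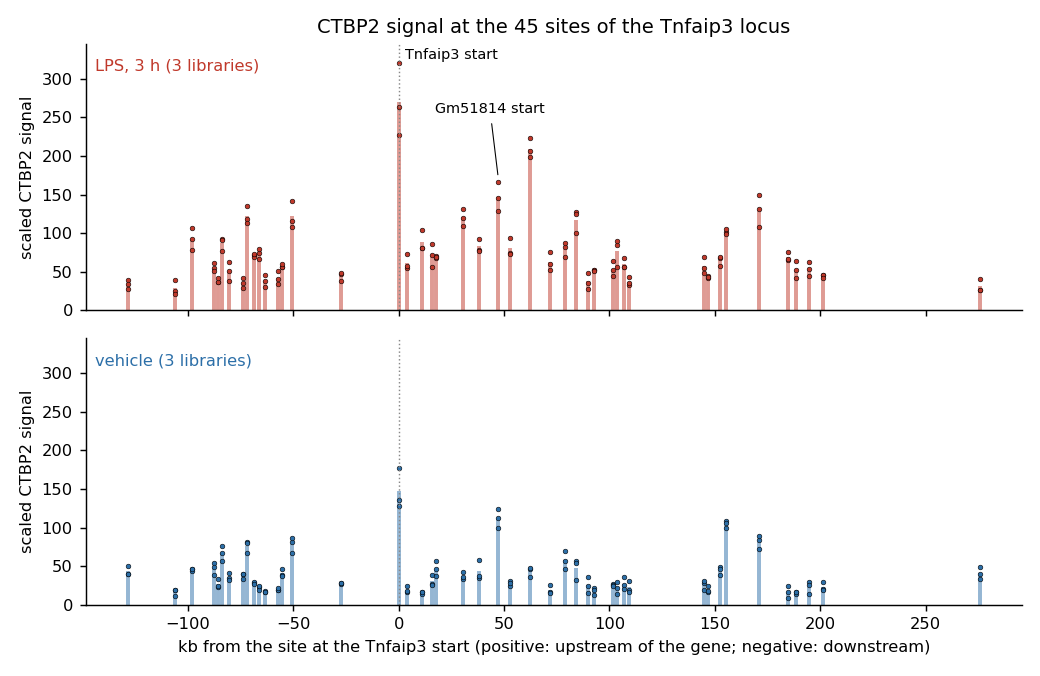
Scaled CTBP2 signal (vertical axis) at the 45 sites of the Tnfaip3 locus by distance from the site at the Tnfaip3 start in kb (horizontal axis, positive upstream), with LPS in the upper panel and vehicle in the lower. Bars are means and points the 3 libraries of each group. The start site is the highest in both panels, and the site 62.5 kb upstream is second in LPS (mean 210) but ordinary in vehicle (mean 43.2).

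Of the 45 sites, 35 rose in LPS (77.8%) and none fell, in limma with Benjamini-Hochberg adjustment over all 62236 sites. The background was 16.1% of sites called higher and 13.5% called lower. At an unadjusted p under 0.05, limma gave 40 higher and 0 lower, against 12910 higher and 11862 lower of all 62236 sites. By edgeR on the recovered reads 35 were higher, the same sites as limma, and 0 lower, against 10340 and 8705 of all sites. The 35 sites spread over 299 kb, from 98.1 kb downstream to 201 kb upstream of the start. The median log2 fold was 0.95, or 1.94-fold, with an interquartile range of 0.53 to 1.31 and a full range of -0.39 to 2.41. A log2 fold over 1 was reached by 22 sites (48.9%), against 6.27% of all sites, and a log2 fold over 2 by 3 sites (6.67%), against 0.514% of all sites. In 37 of the 45 sites every LPS library was above every vehicle library, against 21.6% of all sites. In the authors' deposited table, 16 of the 45 sites were higher at an FDR under 0.05 and 0 lower, and all 16 were among the 35. Over all sites that table had 4.01% higher and only 230 of 62236 lower, so its 0 lower in the locus says little. Without the scaling by medians, limma called 10 of the 45 higher and 0 lower, against 1178 higher and only 30 lower of all 62236 sites. The median log2 fold of the locus was 1.02 in that fit.

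**Figure D2:**
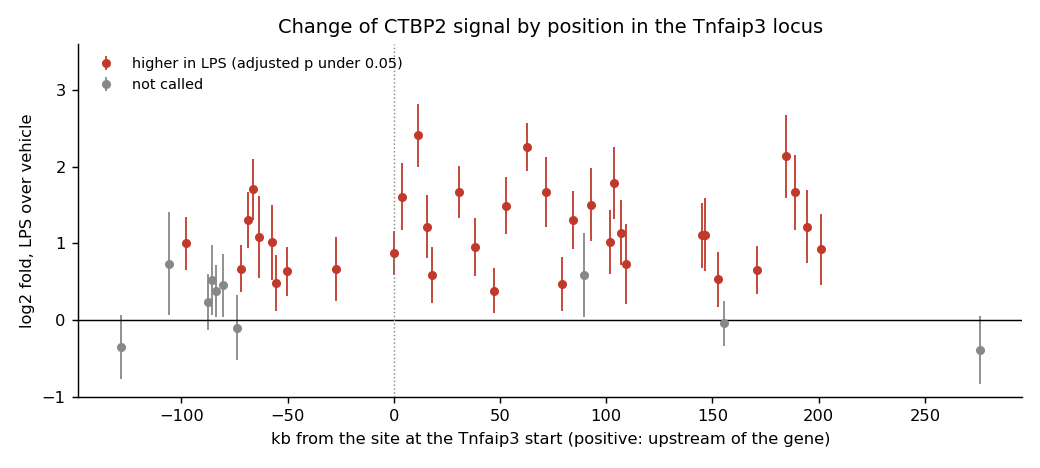
Log2 fold of LPS over vehicle (vertical axis) with its 95% interval at each site of the locus, by distance from the Tnfaip3 start site in kb (horizontal axis, positive upstream). The 35 red sites passed limma's adjusted p of 0.05 and the 10 grey ones did not. Red sites run from 98.1 kb downstream to 201 kb upstream, and the 3 sites over a log2 fold of 2 are all upstream.

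The start site carried the most CTBP2 in both groups. Its scaled signal was 227, 264 and 320 in LPS replicates 1, 2 and 3, against 136, 128 and 177 in vehicle replicates 1, 2 and 3, from 208, 309 and 355 reads in LPS and 119, 150 and 147 in vehicle. Each LPS library was above each vehicle library. The means were 270 ± 47.0 in LPS and 147 ± 26.2 in vehicle (SD, n = 3 each), a log2 fold of 0.87 (limma adjusted p = 1.79e-05, SE 0.14). In LPS it stood above 99.6% of all sites of the table and in vehicle above 95.8%. Its fold was moderate for the locus, since 24 of the other 44 sites had a larger one. The authors' deposited table gives it a log2 fold of 0.31 and an FDR of 0.359. On the deposited values without scaling, limma gave a log2 fold of 0.94 (adjusted p = 0.387). The authors' fold is therefore not the same measure as the folds here, and how it was computed was not examined.

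Close upstream of the start, sites that were low in vehicle rose more. The site 11.3 kb upstream (chr10:18901997-18902997) had the largest fold of the locus. Its scaled signal was 80.8, 81.1 and 104 in LPS, against 16.0, 14.5 and 16.8 in vehicle, from 74, 95 and 115 reads in LPS and 14, 17 and 14 in vehicle. The lowest LPS library was well above the highest vehicle library, and its log2 fold was 2.41 (limma adjusted p = 4.17e-11, SE 0.20). In vehicle this site was above only 1.54% of all sites and in LPS above 81.3%. The site 3.86 kb upstream (chr10:18894572-18895572) had 54.6, 58.0 and 73.1 in LPS and 17.2, 23.9 and 18.0 in vehicle, a log2 fold of 1.61 (limma adjusted p = 5.56e-07, SE 0.21). RefSeq lists another Tnfaip3 start, which lies not upstream but on the gene-body side of the first. Its placed position was 3.70 kb from the centre of its nearest site, the start site. At 30.7 kb upstream (chr10:18921440-18922440) the signal was 120, 109 and 132 in LPS, against 42.4, 33.3 and 36.1 in vehicle, a log2 fold of 1.67 (limma adjusted p = 1.95e-09). None of these groups overlapped.

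The site 62.5 kb upstream (chr10:18953213-18954213) had the smallest adjusted p of the locus. It lies beyond the placed start of Gm51814 as seen from Tnfaip3. Its scaled signal was 224, 207 and 199 in LPS replicates 1, 2 and 3, against 35.5, 46.1 and 48.1 in vehicle replicates 1, 2 and 3, from 205, 242 and 220 reads in LPS and 31, 54 and 40 in vehicle. The LPS libraries lay close together and far above the vehicle libraries, with means of 210 ± 12.9 in LPS and 43.2 ± 6.79 in vehicle (SD, n = 3 each). The log2 fold was 2.26 (limma adjusted p = 6.64e-13, SE 0.15). In LPS the site was above 98.8% of all sites of the table, and in vehicle above 45.5%. The authors' deposited table gives a log2 fold of 1.79, again not the same measure, and an FDR of 2.36e-05.

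Between and beyond these sites, the upstream stretch held further sites with strong gains and a few that were high already in vehicle. At 52.9 kb upstream (chr10:18943580-18944580) the signal was 74.2, 72.5 and 93.9 in LPS, against 30.9, 24.7 and 27.7 in vehicle, a log2 fold of 1.49 (limma adjusted p = 1.53e-07). At 71.8 kb (chr10:18962475-18963475) it was 52.4, 60.6 and 75.8 in LPS, against 25.2, 17.1 and 15.6 in vehicle, a log2 fold of 1.67 (limma adjusted p = 5.73e-07). At 104 kb (chr10:18994407-18995407) it was 85.1, 90.5 and 56.0 in LPS, against 21.8, 29.9 and 14.4 in vehicle, a log2 fold of 1.79 (limma adjusted p = 7.92e-07). All 3 sites separated the groups, and the site at 104 kb varied most between libraries. At 185 kb (chr10:19075432-19076432) the signal was 65.5, 66.6 and 75.8 in LPS, against 24.0, 16.2 and 8.43 in vehicle, a log2 fold of 2.14 (limma adjusted p = 5.37e-07, SE 0.26). This was the third-largest fold of the locus, with vehicle libraries that ran from 8.43 to 24.0.

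The upstream sites that were high in vehicle gained less. At 47.3 kb upstream (chr10:18938017-18939017), 188 bp from the placed start of the long noncoding RNA gene Gm51814, the signal was 145, 129 and 166 in LPS, against 99.6, 113 and 124 in vehicle. The groups did not overlap, but the log2 fold was only 0.38 (limma adjusted p = 0.0421, SE 0.14). That call was lost with limma in several alternatives, among them leaving out LPS replicate 1 (adjusted p = 0.0759), LPS replicate 3 (0.181), vehicle replicate 1 (0.192) or vehicle replicate 2 (0.0856). At 171 kb (chr10:19061579-19062579) the signal was 108, 131 and 149 in LPS, against 83.6, 72.5 and 89.0 in vehicle, a log2 fold of 0.65 (limma adjusted p = 0.00146). At 155 kb (chr10:19046049-19047049) it was 102, 105 and 99.3 in LPS, against 109, 99.8 and 106 in vehicle. Those libraries overlapped, with a log2 fold of -0.04 and a 95% interval of -0.33 to 0.25 (limma adjusted p = 0.867). The interval leaves no room there for a gain of the size seen at the start site.

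Downstream of the gene, towards Perp, CTBP2 signal rose at every site from 50.4 to 72.0 kb from the start. At 66.4 kb downstream (chr10:18824280-18825280) the signal was 74.2, 66.6 and 79.4 in LPS, against 22.9, 18.77 and 24.1 in vehicle, a log2 fold of 1.70 (limma adjusted p = 3.19e-08, SE 0.20). At 68.7 kb (chr10:18822049-18823049) it was 72.0, 69.1 and 73.1 in LPS, against 28.6, 29.9 and 26.5 in vehicle, a log2 fold of 1.31 (limma adjusted p = 1.18e-06). Both sites separated the groups by a wide margin. Their neighbour at 72.0 kb (chr10:18818759-18819759) was high in both groups, at 118, 113 and 135 in LPS and 81.3, 80.2 and 67.4 in vehicle, with a log2 fold of 0.67 (limma adjusted p = 0.000916). The site at 50.4 kb (chr10:18840290-18841290) had 116, 108 and 142 in LPS and 81.3, 66.6 and 86.6 in vehicle, a log2 fold of 0.63 (limma adjusted p = 0.00213). Of the 16 downstream sites 9 rose, with a median log2 fold of 0.65 over all 16, and of the 28 upstream sites 25 rose, with a median of 1.13 over all 28. That difference between the sides is a description and was not tested.

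**Figure D3:**
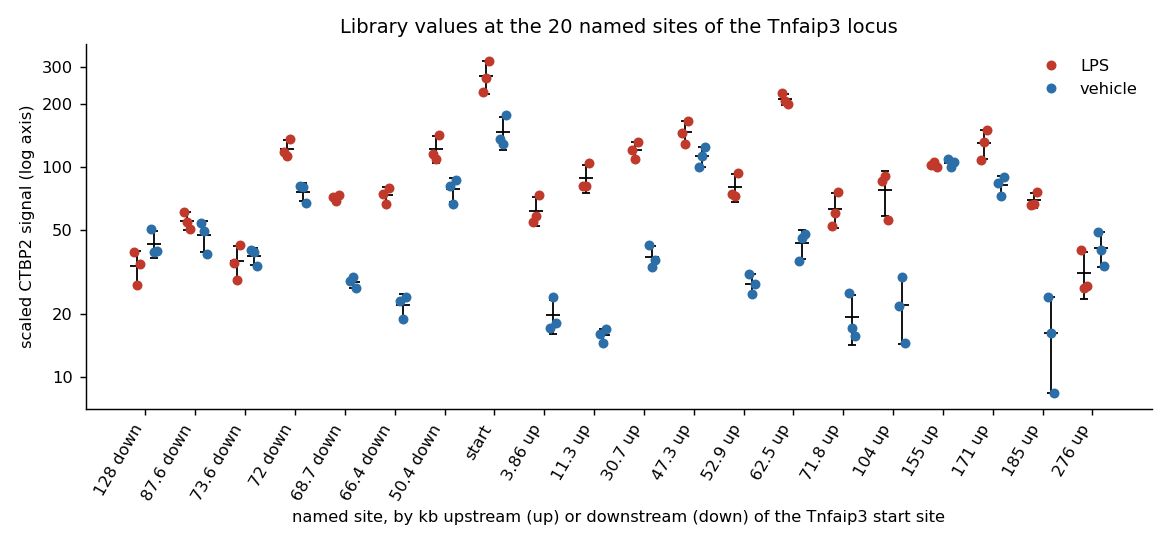
Scaled CTBP2 signal (vertical axis, log scale) in each library at the 20 named sites, ordered by position along the chromosome (horizontal axis, kb upstream or downstream of the Tnfaip3 start site), with LPS in red left of vehicle in blue. Points are libraries and black marks the mean ± SD of 3. The groups are far apart at 11.3, 62.5 and 185 kb upstream and intermixed at 155 kb upstream.

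The other 10 sites did not pass the test, with limma adjusted p-values of 0.0744 to 0.867. The lowest fold was at 276 kb upstream (chr10:19166463-19167463), on the Olig3 side of a gap of 74.6 kb without sites, where the signal was 40.4, 26.5 and 27.1 in LPS and 49.2, 40.1 and 33.7 in vehicle. Its libraries overlapped, and the log2 fold was -0.39 (95% interval -0.83 to 0.06, limma adjusted p = 0.186). The site at the other end of the window, 128 kb downstream (chr10:18762394-18763394), had 39.3, 27.3 and 34.3 in LPS and 50.4, 39.2 and 39.7 in vehicle, a log2 fold of -0.35 (95% interval -0.77 to 0.06, limma adjusted p = 0.200). The sites at both ends of the window thus overlapped between the groups and had folds below 0, while the sites called higher lay between them. At 73.6 kb downstream (chr10:18817084-18818084) the signal was 34.9, 29.0 and 42.4 in LPS and 40.1, 39.2 and 33.7 in vehicle, a log2 fold of -0.10 (limma adjusted p = 0.763). At 87.6 kb downstream (chr10:18803075-18804075) it was 61.1, 54.6 and 50.5 in LPS and 53.8, 49.5 and 38.5 in vehicle, a log2 fold of 0.23 (limma adjusted p = 0.353). The libraries of these sites overlapped too.

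The remaining 25 sites are given by their ranges. Of these, 20 rose, 15 upstream and 5 downstream, with log2 folds of 0.47 to 1.67 and no overlap of the libraries at 19 of them. Their mean signals ranged from 36.9 to 118 in LPS, with a median of 55.6, and from 15.8 to 57.6 in vehicle, with a median of 26.8. The other 5 had log2 folds of 0.38 to 0.74 and limma adjusted p-values of 0.0744 to 0.0960. All 5 were just short of the threshold. That they were above 0 follows from the naming, which had already taken out the 5 lowest folds of the locus.

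Ratios between sites within a library need no scaling between libraries. They are given as a description, since the sites below were named for their small adjusted p. The signal at 62.5 kb upstream was 0.986, 0.783 and 0.620 of that at the start site in LPS, against 0.261, 0.360 and 0.272 in vehicle. The mean log2 ratio was 1.41 higher in LPS, and the groups did not overlap. At 11.3 kb upstream the ratio to the start site was 0.356, 0.307 and 0.324 in LPS and 0.118, 0.113 and 0.0952 in vehicle, a log2 difference of 1.60. Of the 44 other locus sites, 10 had a higher ratio in every LPS library than in every vehicle library, against 2.2% of all sites. A lower ratio in every LPS library was seen at 8, against 68.8% of all sites. The start site itself rose in LPS, so a site without change has a lower ratio there, and both background shares reflect that rise. The start site held 6.89%, 7.89% and 8.85% of the summed signal of the locus in LPS and 7.28%, 7.05% and 10.0% in vehicle, and these shares overlapped between the groups.

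Low vehicle signal went with a larger fold in the locus, as it did in the table. The Spearman correlation of the log2 fold with the vehicle mean was -0.59 over the 45 sites and -0.37 over all 62236 sites, as a description in which both measures share the vehicle libraries. The median vehicle signal of the locus was 28.3, with a median percentile of 17.7 among all sites, and the median LPS signal was 62.9, with a median percentile of 66.5. Of the 22 sites with the lowest vehicle means (15.8 to 27.8), 19 rose (86.4%), against 39.2% of the 9395 sites of the table in that range. Of the other 23, 16 rose (69.6%), against 10.8% of the 48637 sites of the table between their lowest and highest vehicle means (28.3 and 147). The upper range is wide, and sites were not matched on vehicle signal within it. Sites low in vehicle may have entered the table only through peaks in LPS, in the locus and elsewhere, which favours a gain. Whether peak calling pooled the libraries is not given, so this was not tested.

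**Figure D4:**
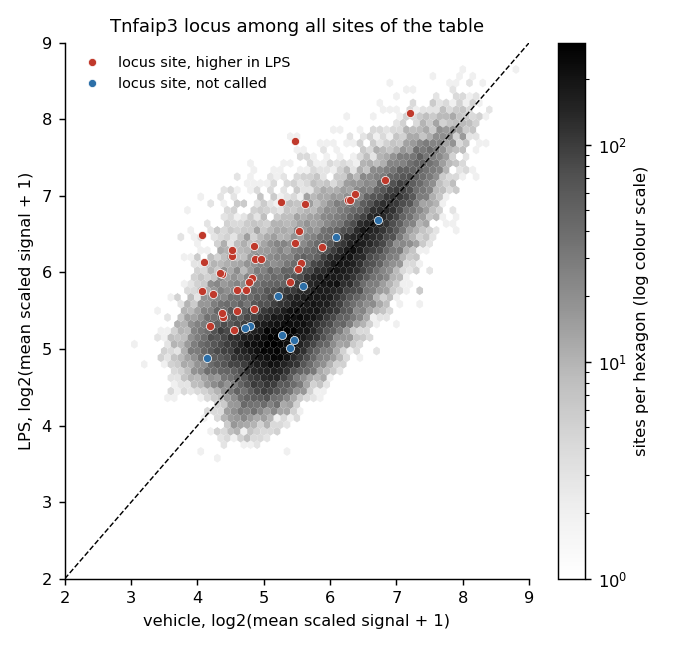
Mean LPS signal (vertical axis) against mean vehicle signal (horizontal axis), both as log2(scaled signal + 1), for 62206 sites of the table as grey hexagons shaded by the number of sites on a log scale (30 sites lie outside the axes), and for the 45 sites of the Tnfaip3 locus as points. Red points rose in LPS, blue points did not pass the test, and the dashed line marks equal signal. The locus runs from low to high vehicle signal, and 41 of its 45 sites lie above the line of no change.

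Sites were dense in the locus. The median gap between neighbouring sites was 5.69 kb, and the gaps of 74.6 kb and 35.4 kb were the widest. When each chromosome was divided into windows of the same 450 kb, 3813 windows held a site, with a median of 13 sites, and 152 of them (3.99%) held 45 or more. The richest held 84. Just outside the window, the nearest sites were 170 kb downstream, with a mean of 39.4 ± 1.86 in LPS and 32.0 ± 12.1 in vehicle (log2 fold 0.37), and 491 kb upstream, with 120 ± 19.8 in LPS and 111 ± 16.2 in vehicle (log2 fold 0.11, SD, n = 3 each). Just inside were the sites at 128 kb downstream and 276 kb upstream described above.

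The 5 sites elsewhere in the genome whose signal over the 6 libraries was nearest to that of the site 62.5 kb upstream (Euclidean distance of log2(scaled signal + 1) from 0.325 to 0.464) lay on chromosomes 8, 1, 5, 11 and 2. The nearest placed gene starts were those of 2500002B13Rik (0.914 kb away), Fcer1g (14.1 kb), Mfsd7a (1.25 kb), Gm12223 (11.2 kb) and AA467197 (39.2 kb). Fcer1g encodes the signalling chain shared by activating Fc receptors. The first of these sites, chr8:57957526-57958526, averaged 212 in LPS and 44.6 in vehicle. These sites were chosen for this pattern, so their values carry no test.

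Other genes of the NF-kB pathway were examined as a list of 50 genes with Tnfaip3 among them, of which 38 could be placed. All 38 had a CTBP2 site within 10 kb of the start, as did 16168 of the 26085 placed genes. At least 1 such site was higher in LPS for 27 genes (71.1%), against 22.2% of the 16168 annotated genes with a site in that distance, and at least 1 was lower for 6 genes (15.8%), against 18.1%. The list was chosen with earlier results of these data known, and genes were not matched on their number of sites. These shares are therefore a description. For Tnfaip3 both sites within 10 kb rose. Among the feedback inhibitors, Tnip1, which encodes the A20-binding adaptor ABIN-1, had 2 sites, both higher, with log2 folds of 1.69 and 0.74, and Nfkbia, which encodes the inhibitor IkBa, had 2 of 3 sites higher, with folds up to 1.61. The other A20-binding adaptor genes differed from Tnip1: Tnip2 (ABIN-2) had 1 lower site of 3 (-0.50) and none higher, and Tnip3 (ABIN-3) had 1 higher (0.60) and 1 lower (-0.67). Nfkbid, which encodes a nuclear IkB protein, also had 1 higher (0.65) and 1 lower (-0.67) of its 5 sites. Among the transcription factor and adaptor genes, both sites of Nfkb2, which encodes the p100 precursor, rose (1.83 and 1.43), as did both of Traf1 (1.53 and 0.65), an adaptor of TNF receptors. All 3 sites of Birc3, a ubiquitin ligase of the same receptor complexes, rose by 1.19 to 1.88. The kinase genes Ripk3, Tbk1 and Irak2 each had a lower site (log2 folds of -0.87, -1.18 and -0.63 in that order), and Tbk1 and Irak2 also had a higher one (1.27 and 0.48).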

How the data were processed

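Alignment and filtering tools, per the submitters' processing notes, included BWA 0.7.17, SAMtools 1.9, Picard 3.2.0 and bedtools. The notes also name MACS3 3.0.0a5, DiffBind 3.16 in R 4.4.1, deepTools 3.5.1 and FastQC, and the builds mm10, mm39 and GRCm39 without the step each served. The sources used here do not give whether peak calling pooled the libraries. The authors deposited 1 table of 62236 sites (61976 of them 1001 bp wide) with a normalised signal per site and library, log2 concentrations and log2 fold, and p-values with FDR. All signal values were whole multiples of 1 step fitted per column within 0.1 read, and read numbers here are values divided by that step. The step was seen directly as the smallest value in 1 column (vehicle replicate 3). In the other columns the smallest value was 2 to 6 steps, so reading the step as 1 read is an inference, on which the edgeR counts also rest. The authors' gene names follow other coordinates than the sites and were not used to choose members.

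Each library was divided by its median over all sites and multiplied by the geometric mean of the medians. The test was limma 3.58.1 (trend and robust options, all 6 libraries, no covariates) in R 4.3.3 on log2(scaled signal + 1) without a filter, with Benjamini-Hochberg adjustment over all sites. edgeR 4.0.16 on the recovered reads was an alternative. Tables were handled in Python 3.11.15. Both tests were run on simulated reads with few changed sites and a fixed dispersion. That setting is unlike these data, so the simulation checked the code and not the calls. Gene starts were placed by the shift, within 1 Mb, at which most neighbouring starts had a site within 500 bp. The named sites were the 10 with the smallest adjusted p, the 5 highest in vehicle, the 5 highest in LPS, the 5 lowest log2 folds and the 3 nearest the start, 20 in all. The members, the gene list, the motifs and this rule were chosen with earlier results of these data known. Replicates within a group correlated at 0.890 to 0.932 over sites, which are not independent, and none agreed within sampling noise (chi-square per degree of freedom 1.18 to 2.32). Read counts without molecular identifiers carry more than counting error.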

Additional observations from a re-analysis of the deposited data

How the results depend on the processing

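On the deposited signal without scaling, limma called 1178 sites of the table higher and 30 lower, and 10 of the locus sites higher. On that scale 6 of the 15 named sites called higher lost the call, and the site 155 kb upstream had a log2 fold of 0.023 against -0.04 with scaling. The cause was not tested. At an adjusted p under 0.01, 4699 sites of the table were lower and 28 of the locus were higher. Within 100 kb of the start, 23 of 29 sites were higher, by the smaller number of sites. Leaving out 1 library at a time gave 29 to 34 higher locus sites, a median log2 fold of 0.87 to 0.97, a log2 ratio of the summed signal of 0.87 to 0.94, and 7691 to 10081 higher and 6032 to 7913 lower sites in the table. The site 73.6 kb downstream, not called in any of these fits, ranged from -0.23 without LPS replicate 3 to 0.034 without LPS replicate 2. The locus had 0 lower sites in every alternative, although the fit on unscaled values called few sites lower anywhere. In every fit other than that one, 28 sites were higher. With the replicate number as a block, 11692 sites of the table were higher, 10398 lower, and 38 of the locus higher. Deviations of libraries with the same number correlated at 0.111, 0.0385 and 0.214, and those with different numbers at -0.205 to 0.148. These values do not decide whether the numbers pair the libraries. The main fit did not pair them, because the labels do not state a pairing. Depth limits the lowest sites, which rested on under 20 reads in a vehicle library. Of 85 alternatives of counts and medians, 80 kept their value within the limits set. Those limits were wide: 6032 against 8409 lower sites of the table counted as kept. The 80 also include the alternatives for the count of 0 lower locus sites.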

Other observations

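Beyond the window, limma called a larger share of sites higher on the downstream side than on the upstream side. In the next 1 Mb on the downstream side, 12 of 29 sites were higher in LPS (41.4%) and 0 lower (0 also at an unadjusted p under 0.05 and by edgeR), with a median log2 fold of 0.38. In the next 1 Mb on the upstream side 6 of 45 were higher (13.3%) and 6 lower (13.3%), with a median of -0.05. The shares over all sites were 16.1% higher and 13.5% lower, so the upstream side was near the background, and the difference between the sides was not tested. The 2 sites just outside the window on the downstream side, at 170 and 179 kb, were not called (log2 folds of 0.37 and 0.38). Those folds were near the median of that side, so a break between it and the locus is not shown.

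On the downstream side, 5 sites lay within 1 kb of a placed gene start, of which 2 were higher. The site at Nhsl1, 546 kb from the Tnfaip3 start site, averaged 77.5 ± 12.4 in LPS and 25.3 ± 1.95 in vehicle (SD, n = 3 each), a log2 fold of 1.57 (limma adjusted p = 9.38e-08). The site at Abracl averaged 237 ± 18.4 in LPS and 139 ± 1.16 in vehicle, a log2 fold of 0.77 (limma adjusted p = 2.34e-05). The sites at Arfgef3 (log2 fold 0.03, limma adjusted p = 0.926), Ccdc28a (-0.12, 0.637) and Heca (0.28, 0.238) were not called. On the upstream side, 6 sites lay at placed starts, those of Ifngr1, Slc35d3, Pex7, Map3k5, Map7 and Bclaf1, and none was called, with log2 folds of -0.14 to 0.21 and limma adjusted p-values of 0.573 or more. Ifngr1, which encodes a chain of the interferon gamma receptor, averaged 177 ± 27.3 in LPS and 162 ± 2.35 in vehicle.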
